A study of Bos taurus with 14 samples.

Results

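The transcripts of 9 enzymes of cholesterol synthesis, chosen by name, were examined in the mammary gland of dairy cows, and 8 of them had a probe set that could be named by its RefSeq accession, out of 6697 named genes on the array. IDI1, the isomerase of isopentenyl diphosphate, was not matched and is not analysed here. The early, isoprenoid steps were represented by PMVK (NCBI Gene 513533) and FDPS (281156). The late, sterol steps were represented by FDFT1 (281767), SQLE (526535), CYP51A1 (505060), TM7SF2 (282384), MSMO1 (504481) and DHCR7 (514745). Each of the 8 genes had 1 probe set, and all 8 passed the filter on low values, a mean above 4.59 log2.

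Cholesterol is made from acetyl-CoA in a pathway whose early steps build isoprenoid units through mevalonate, and whose late steps join these units into squalene and turn it into sterols. Its enzymes are largely controlled together by SREBP transcription factors, which become active when sterols in the endoplasmic reticulum run low. In the lactating mammary gland cholesterol is needed for the membranes of secretory cells and for the membrane that surrounds each milk fat globule, and part of it is taken up from blood lipoproteins.

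The samples were 14 Holstein-Friesian cows in 7 blocks, numbered 302 to 308, with 1 Affymetrix array per cow. In each block 1 cow received a basal diet with a concentrate that contained linseed, a seed rich in alpha-linolenic acid (Omega, n = 7), and the other a concentrate without linseed (Control, n = 7). Both diets ran from 3 weeks before the expected calving to 6 weeks after calving. Omega cows had parity labels of 1 (2 cows), 2 (1 cow), 3 (1 cow) and 4 (3 cows), and Control cows of 1 (2 cows), 2 (1 cow), 3 (1 cow), 4 (1 cow) and 6 (2 cows). The study's description counts 6 cows of second parity, whereas 2 carry that label, and the labels were used as given. All 4 cows labelled 1 have milk, fat and protein yields from a previous lactation. The label 1 therefore does not mean a first lactation, and parity 1 below stands for this label only. Neither age nor the day of tissue collection was given in the sources used here. Levels are log2 intensities, on which 1 unit is a doubling.

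The tissue carried the defining transcripts of secreting mammary gland in every cow. LALBA, the cofactor of lactose synthase, lay between 14.50 and 14.60 log2, and CSN3, a casein, between 14.63 and 14.74 log2. Both lay close to the highest value in the data, 14.8 log2, so their narrow ranges do not show that the cows were alike in secretion. Among Control cows, those of blocks 302 and 304 had arrays that differed from the rest. Their median correlations with the other arrays were 0.926 and 0.912, against 0.962 to 0.980 for the remaining 12. SAA3, an acute-phase protein made in the udder, was at 12.80 and 13.82 log2 in these 2 cows and between 6.70 and 10.20 log2 in the other 12. Both cows were in the Control group, so the diet difference of each named gene is given with and without their blocks. Counts and medians of the other gene lists are over all 7 blocks.

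No cholesterol synthesis transcript passed the test of the diet, although all 8 estimates lay above 0, against 43.1% of all tested probe sets. FDFT1 and PMVK had the largest differences, SQLE and DHCR7 the smallest. In limma, fitted with the block as a term over 7518 probe sets, 0 of the 8 had an adjusted p under 0.05, and the share called among all probe sets was 0%. Over all probe sets the unadjusted counts were 827 in limma and 768 by the exact sign-flip test, which also made 0 calls after adjustment. At an unadjusted p under 0.05, 2 of the 8 were higher in Omega cows, against 3.78% of all probe sets. The median difference over the 8 was 0.24 log2, and over all tested probe sets it was -0.03 log2. Higher levels in Omega cows in at least 6 of 7 blocks were found for 4 of the 8 (FDFT1, PMVK, TM7SF2 and MSMO1), against 8.06% of all probe sets. By the exact two-sided sign-flip test over blocks, 0 of the 8 had an unadjusted p under 0.05, against 10.2% of all probe sets.

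**Figure D1:**
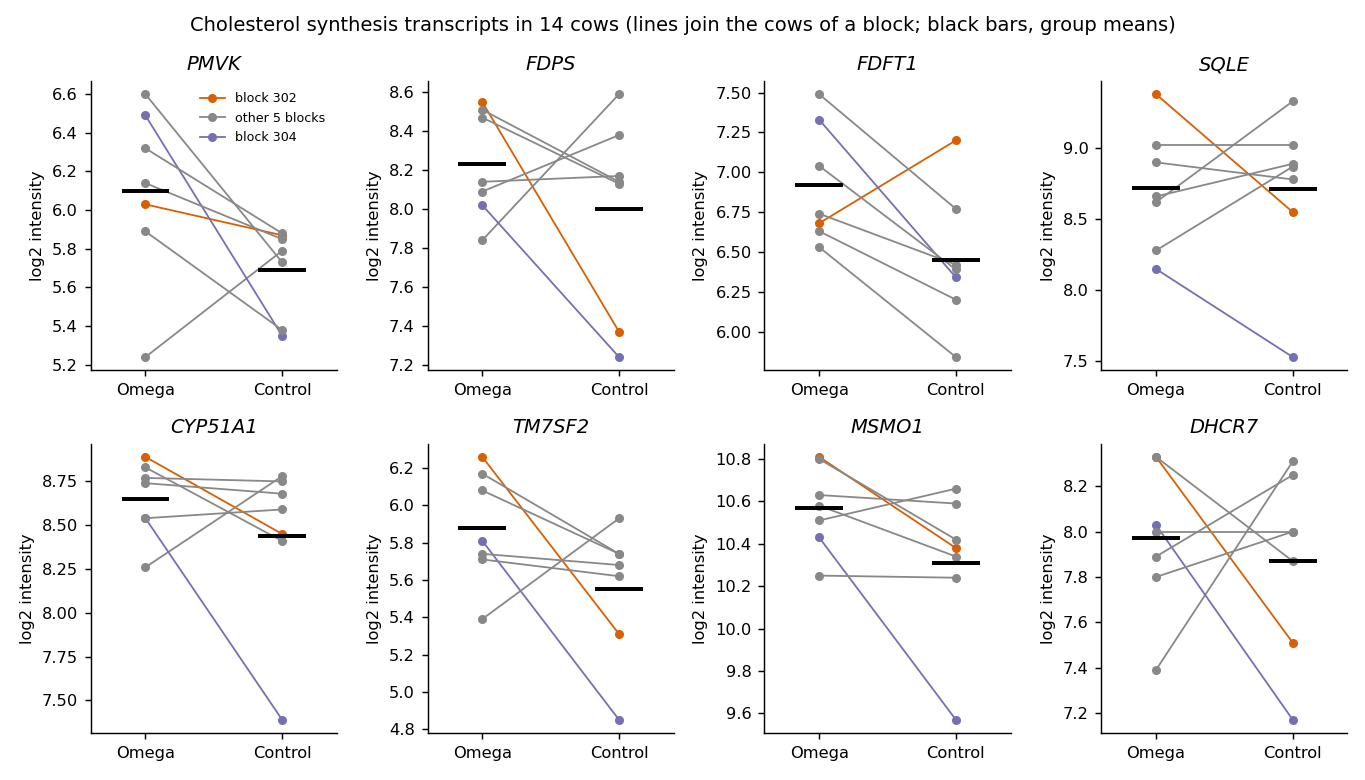
Levels of the 8 transcripts (vertical axes, log2 intensity, which do not start at 0) in Omega cows (left of each panel) and Control cows (right), with lines joining the 2 cows of a block and black bars at the group means (n = 7 each). The Control cow of block 304, at the end of the purple line, is the lowest of all 14 cows in 6 of the 8 panels, while in the FDFT1 panel the line of block 302 alone runs upward to the Control cow.

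Among the early enzymes, PMVK, which phosphorylates mevalonate phosphate, ranged from 5.24 to 6.60 log2 in Omega cows with a median of 6.14, and from 5.35 to 5.88 log2 in Control cows with a median of 5.79. The groups overlapped because the Omega cow of block 303 was the lowest of all cows. The other 6 Omega cows lay above every Control cow, but narrowly, with 5.89 log2 in block 305 against a highest Control level of 5.88. How many of all probe sets had this pattern was not counted. The PMVK difference was 0.41 log2 (95% confidence interval 0.01 to 0.81), or 1.33-fold, with limma adjusted p = 0.45 and exact sign-flip p = 0.109. FDPS makes farnesyl diphosphate, the branch point from which sterols, ubiquinone, dolichol and protein prenyl groups are made. Its levels ran from 7.84 to 8.55 log2 in Omega cows and from 7.24 to 8.59 log2 in Control cows, with the same median of 8.14 in both groups. The difference of the FDPS means was 0.23 log2 (-0.24 to 0.69), and it was positive in 4 of 7 blocks. The Control cows of blocks 304 and 302 had the lowest FDPS levels of all, at 7.24 and 7.37 log2.

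FDFT1, squalene synthase, carries out the first step committed to sterols by joining 2 farnesyl units. It ranged from 6.53 to 7.49 log2 in Omega cows with a median of 6.74, and from 5.84 to 7.20 log2 in Control cows with a median of 6.39. The difference was 0.47 log2 (0.10 to 0.83), or 1.38-fold (1.08 to 1.78), with limma adjusted p = 0.447 and exact sign-flip p = 0.0625. Within blocks it was positive in 6 of 7, from 0.32 in block 305 to 0.99 in block 304, and negative, at -0.52, in block 302. The Control cow of block 302 had 7.20 log2, the highest FDFT1 level of the Control group, although FDPS and TM7SF2 were lower in only 1 other cow. Among the cows of parity above 1, the 5 Omega cows (6.53 to 7.33 log2) all lay above the 5 Control cows (5.84 to 6.42 log2). No other member had this separation, which was present in 0.346% of all probe sets. These 10 cows exclude block 302, the only block with a negative FDFT1 difference. Their parity labels were not matched between diets, as both cows of label 6 were Control cows. The diet fit had no parity term, so diet and parity label cannot be told apart in this separation.

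SQLE, squalene epoxidase, catalyses a rate-limiting step after squalene. It ranged from 8.15 to 9.38 log2 in Omega cows and from 7.53 to 9.33 log2 in Control cows, with medians of 8.66 and 8.87. The means differed by 0.01 log2 (-0.41 to 0.43), an interval of 0.751-fold to 1.35-fold. Block differences ran from -0.71 to 0.83 log2 and were positive in 4 of 7 blocks.

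CYP51A1, the demethylase of lanosterol, had medians of 8.74 log2 in Omega and 8.59 log2 in Control cows and differed by 0.22 log2 (-0.17 to 0.60). TM7SF2, the reductase that follows it, had medians of 5.81 and 5.68 log2 in Omega and Control cows and differed by 0.33 log2 (-0.06 to 0.72). MSMO1, which oxidises the methyl groups at carbon 4 of the sterol ring, had medians of 10.58 log2 in Omega and 10.38 log2 in Control cows and differed by 0.26 log2 (-0.02 to 0.53). DHCR7, the reductase of the last step to cholesterol, had a median of 8.00 log2 in both groups and differed by 0.09 log2 (-0.38 to 0.57). These 4 late enzymes shared a lowest value in the Control cow of block 304, at 7.39, 4.85, 9.57 and 7.17 log2 for CYP51A1, TM7SF2, MSMO1 and DHCR7. Their limma adjusted p-values lay between 0.463 and 0.833.

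The direction varied between blocks. All 8 transcripts were higher in the Omega cow in blocks 304 and 308, and 7 of 8 in blocks 302 and 306. The counts were 5 of 8 in block 307, 4 of 8 in block 305 and 2 of 8 in block 303. The median difference over the 8 transcripts was 0.91 log2 in block 304, 0.63 in block 302, 0.40 in block 308 and 0.15 in block 306. It was 0.01 log2 in block 307, -0.01 in block 305 and -0.54 in block 303. In block 303 only FDFT1 and TM7SF2 were higher in the Omega cow, each by 0.43 log2.

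**Figure D2:**
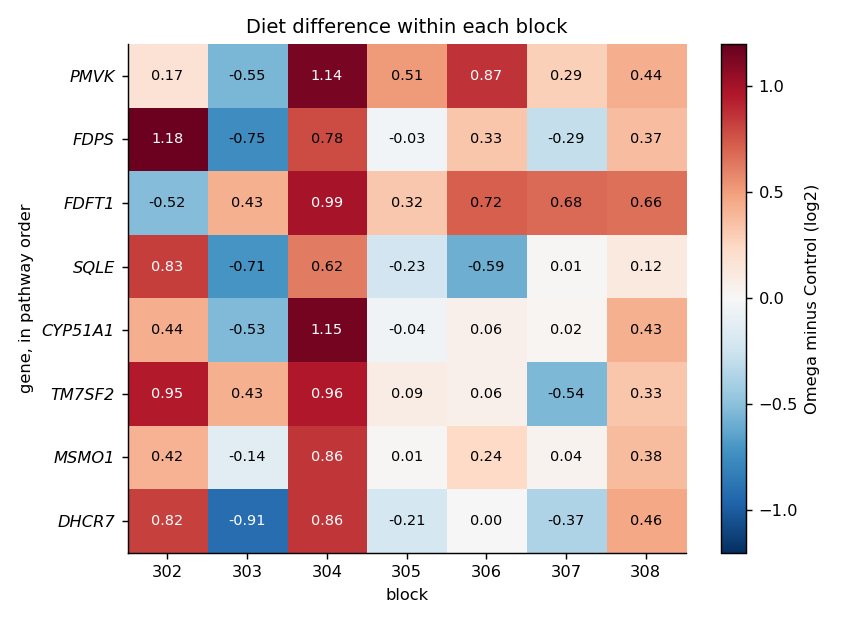
Omega minus Control difference (colour and printed value, log2) of each transcript (rows, in pathway order) in each block (columns). Block 304 is positive in all 8 rows, block 303 is negative in 6 of 8, and the FDFT1 row is positive in every block but 302.

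Early and late steps had similar average differences, which were not tested against each other. The mean difference of the 2 early enzymes minus that of the 6 late ones was 0.09 ± 0.28 log2 (SD over 7 blocks), with -0.41 in block 303 and 0.52 in block 306 at the extremes. With FDFT1 counted as early it was 0.19 log2. Without blocks 302 and 304 it was 0.0787 log2, without block 306 it was 0.0184 and without block 303 it was 0.17.

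Without blocks 302 and 304 the estimates no longer had 1 direction. In the remaining 5 blocks the median over the 8 transcripts was 0.0316 log2. FDFT1 differed by 0.56 log2 (0.34 to 0.78), was higher in 5 of 5 blocks and had an unadjusted p of 0.000333 and an adjusted p of 0.417 in limma. It was the only member of the 8 with an unadjusted p under 0.05 or with 5 of 5 blocks higher, against 2.50% and 3.15% of all probe sets, and 0% of all probe sets were called after adjustment. PMVK differed by 0.31 log2 (-0.11 to 0.73). MSMO1 and TM7SF2 were at 0.11 and 0.08 log2. FDPS, CYP51A1, DHCR7 and SQLE turned to -0.07, -0.01, -0.20 and -0.28 log2, and the interval of each spanned 0.

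**Figure D3:**
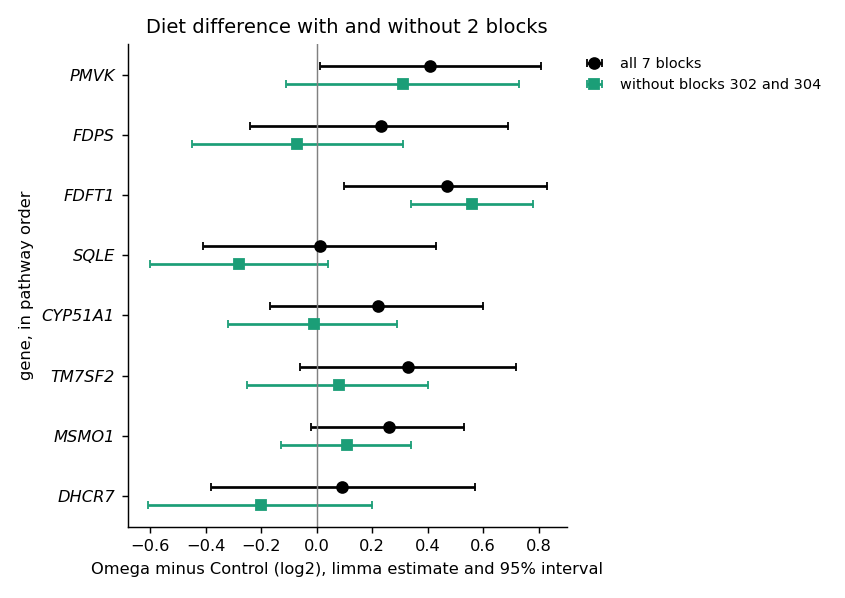
Omega minus Control difference of each transcript (horizontal axis, log2, limma estimate with 95% confidence interval) over all 7 blocks (black circles) and over 5 blocks without 302 and 304 (green squares). The FDFT1 estimates are 0.47 and 0.56 with both intervals above 0, whereas SQLE moves to -0.28 and FDPS, CYP51A1 and DHCR7 also pass below 0.

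Markers of cell types and of inflammation also stood apart in these 2 Control cows. To set lists side by side, each gene was centred on its average across cows, and the tested genes of a list were averaged in each cow. The 8 cholesterol enzymes scored -0.17 log2 in the Control cow of block 302 and -0.82 in that of block 304, against -0.17 to 0.36 in the other 12 cows. The 8 tested of 17 acute-phase genes scored 1.39 and 2.63 in these cows, against -0.76 to 0.74. Fibroblast markers (9 of 12 tested) scored 0.86 and 0.66, against -0.33 to 0.27, and leukocyte markers (9 of 16) 0.34 and 0.55, against -0.22 to 0.09. Luminal markers (6 of 10), among them keratins, scored 1.27 and 1.08, against -0.52 to 0.40. Thus both cows lay above all others for these 4 lists. Myoepithelial markers (6 of 10) scored 0.58 and 0.42, against -0.33 to 0.17, while milk secretion genes (11 of 13) scored -0.28 and -0.39, against -0.11 to 0.16. Endothelial markers (7 of 9) scored 0.27 and -0.08, against -0.23 to 0.15, and the 2 tested of 9 adipocyte markers 0.17 and -0.21, against -0.29 to 0.54. LEP and PLIN1, adipocyte genes, lay at 2.95 to 3.44 and 3.37 to 4.07 log2 over all cows, below the filter.

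By diet, fibroblast scores ran from -0.33 to 0.27 log2 in Omega and from -0.32 to 0.86 log2 in Control cows. Of the 9 fibroblast genes, 0 had an estimate above 0, against 43.1% of all tested probe sets. Leukocyte scores ran from -0.17 to 0.09 log2 in Omega and from -0.22 to 0.55 log2 in Control cows, and acute-phase scores from -0.58 to 0.74 log2 in Omega and from -0.76 to 2.63 log2 in Control cows. None of these lists held a gene that passed limma. Their part in the enzyme levels was not tested. In pieces of whole tissue, fewer cells of a type and less RNA per cell cannot be told apart.

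The pathway's other genes gave no call for diet either. Of 7 tested synthesis enzymes outside the set, 0 passed limma in either direction. Their median was 0.09 log2, and 6 of 7 estimates were above 0, against 43.1% of all tested probe sets. MVD, which makes isopentenyl diphosphate, differed by 0.25 log2, MVK, the kinase of mevalonate, by 0.16 and ACAT2, a thiolase that forms acetoacetyl-CoA, by -0.07. Without blocks 302 and 304 MVD differed by -0.01 log2, MVK by 0.04 and ACAT2 by -0.08. HMGCS1 and SREBF2 are not analysed here.

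Genes that use the isoprenoids for other products had 0 calls and 4 of 8 estimates above 0, near the 43.1% of all tested probe sets. COQ2, which attaches the side chain of ubiquinone, had 8.70 to 9.28 log2 in Omega and 8.04 to 8.97 log2 in Control cows. It differed by 0.40 log2 (0.20 to 0.60) and was higher in 7 of 7 blocks, with limma adjusted p = 0.447. Higher levels in 6 or 7 of 7 blocks were found for 8.06% of all probe sets, and the share with 7 of 7 alone was not counted. PDSS1, a subunit of the enzyme that makes the side chain of ubiquinone, differed by -0.25 log2. COQ2 and PDSS1 were named for the 2 smallest unadjusted diet p of this list, so their differences are not independent of that choice. Of 7 sterol regulators 0 were called. INSIG1, which retains the SREBP complex in the endoplasmic reticulum, differed by 0.17 log2 (-0.30 to 0.64) and MBTPS2, a protease that releases SREBP, by 0.18. Without blocks 302 and 304, COQ2 differed by 0.32 log2, PDSS1 by -0.18, INSIG1 by -0.03 and MBTPS2 by 0.17.

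Of 6 tested genes of sterol uptake and traffic and 7 of export and esterification, 0 were called. LIPA, the lysosomal lipase that frees cholesterol from its esters, differed by -0.41 log2 and VLDLR, a lipoprotein receptor, by -0.27 log2. APOE, a lipoprotein component also made by macrophages, had 7.68 to 8.24 log2 in Omega and 7.62 to 10.65 log2 in Control cows, a difference of -0.64 log2 (-1.34 to 0.06). APOA1, another lipoprotein component, differed by -0.58 log2. The 2 highest APOE levels, 9.37 and 10.65 log2, were those of the Control cows of blocks 302 and 304, and without these blocks the difference was -0.08 log2. LIPA was at -0.01, VLDLR at -0.38 and APOA1 at -0.25 log2 without them.

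Parity was compared between the 4 cows labelled 1 (blocks 302 and 306) and the 10 with a higher label. In limma, with diet as a term and the block as a random effect, 0 of the 8 passed and 0% of all probe sets were called (165 at an unadjusted p under 0.05). That count was 1742 when the label entered as a number, and 1103 when block 304 was left out, each with 0 calls after adjustment. FDFT1 alone had an unadjusted p under 0.05 and was higher in parity 1, against 1.26% of all probe sets. FDFT1 had 6.68 to 7.49 log2 in parity 1 (mean 7.03 ± 0.38, SD, n = 4) and 5.84 to 7.33 log2 in the others (6.55 ± 0.42, SD, n = 10). The ranges overlapped. The difference was 0.49 log2 (0.08 to 0.89), with limma adjusted p = 0.983. Without the Control cows of blocks 302 and 304 it was 0.33 log2, without block 306 it was 0.39 and without block 307 it was 0.40. In each of these 3 fits the unadjusted p of FDFT1 was above 0.05, at 0.122, 0.175 and 0.0562 in limma. Leaving out block 302, 303, 304, 305 or 308 instead gave FDFT1 unadjusted limma p-values from 0.00384 to 0.0487, with 0.305 as the smallest adjusted p. With the label as a number, the unadjusted limma p of FDFT1 was 0.0181 and the adjusted p 0.172. By single label, the FDFT1 mean was 7.03 log2 at parity 1, 6.84 at 2, 6.47 at 3, 6.56 at 4 and 6.29 at 6, where labels 2, 3 and 6 had 2 cows each and both cows of label 6 were Control cows.

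The remaining transcripts differed less between parity classes. PMVK differed by 0.22 log2 (-0.20 to 0.65) and CYP51A1 by 0.21 (-0.24 to 0.65). MSMO1, SQLE, DHCR7, TM7SF2 and FDPS differed by 0.12, 0.08, 0.06, 0.04 and 0.02 log2. The median over the 8 was 0.10 log2, and over all tested probe sets it was 0.02 log2. The median over the 8 was -0.00255 log2 without block 304, 0.0372 after quantile normalization and -0.0405 per 1 lower parity label, so it had no stable direction. The 2 cows of label 2, which are those of block 304 and include its Control cow, had the lowest mean of the 5 labels for SQLE (7.84 log2), FDPS (7.63), CYP51A1 (7.96), MSMO1 (10.00), TM7SF2 (5.33) and DHCR7 (7.60).

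**Figure D4:**
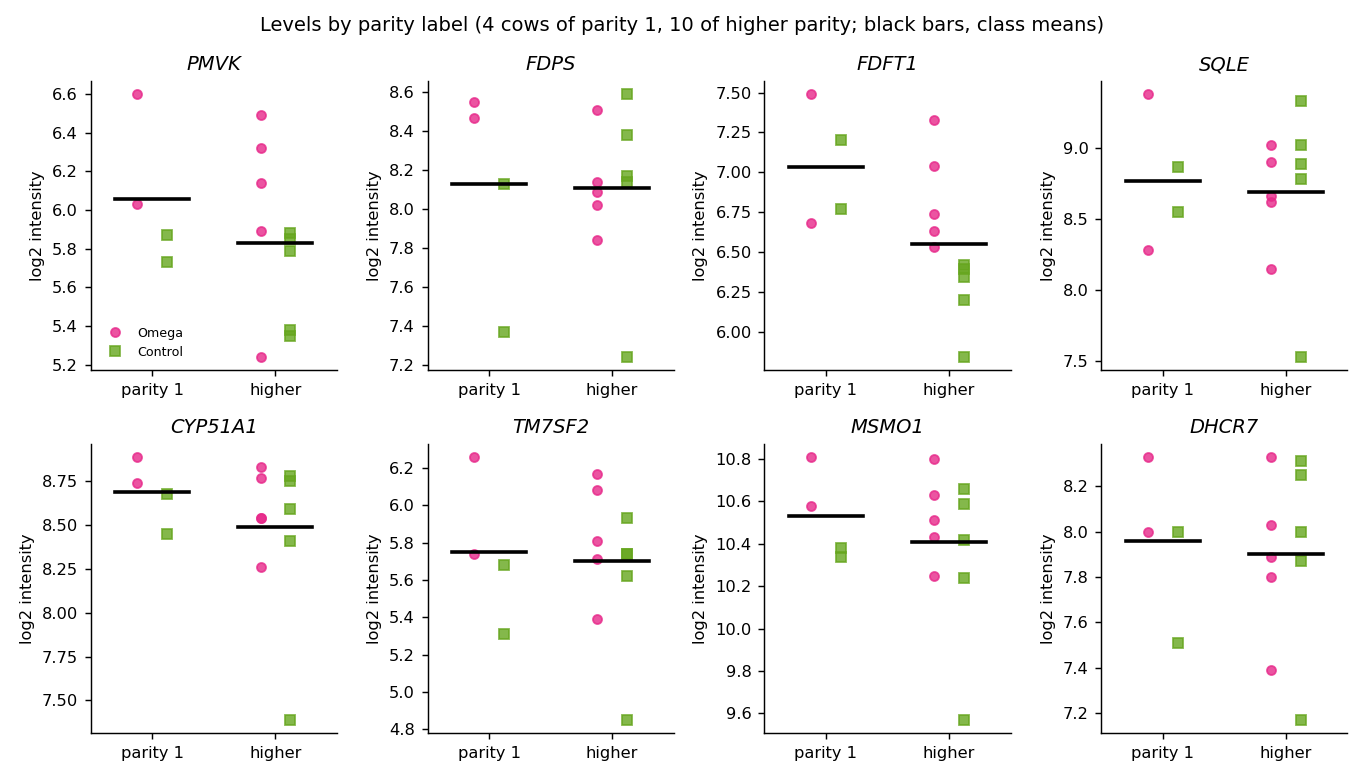
Levels of the 8 transcripts (vertical axes, log2 intensity, which do not start at 0) in 4 cows of parity 1 (left of each panel) and 10 of higher parity (right), with Omega cows as pink circles, Control cows as green squares and black bars at the class means. The classes overlap in all 8 panels, and among cows of higher parity the FDFT1 panel shows 5 Omega points above 5 Control points.

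The diet difference was also set against parity class, as 2 blocks of parity 1 against 5 of higher parity. FDPS differed by 0.75 log2 between Omega and Control in parity 1 and by 0.02 in higher parity, an interaction of 0.74 log2 (-0.22 to 1.69). FDFT1 went the other way, with diet differences of 0.10 and 0.62 log2 in these classes and an interaction of -0.52 log2 (-1.29 to 0.25). The remaining 6 interactions lay between 0.04 and 0.44 log2. In limma, 0 of the 8 passed, with an adjusted p of 1 for each, and 0% of all probe sets were called. At an unadjusted p under 0.05 the count was 0 of 8, against 1.66% of all probe sets (125). The unadjusted count over all probe sets was 1511 without block 306 and 718 without block 302. Each of these 2 fits left a single block of parity 1, so their counts rest on 1 pair of cows. The FDFT1 interaction was -1.14 log2 without block 306 and 0.10 without block 302. Without block 304, which keeps both blocks of parity 1, unadjusted limma p was 0.0372 for FDPS. The 2 blocks of parity 1 did not agree for FDFT1 (-0.52 and 0.72 log2 in blocks 302 and 306) or for SQLE (0.83 and -0.59 log2), and for FDPS they gave 1.18 and 0.33 log2. The FDPS interaction was 0.32 log2 without block 302 and 1.16 log2 without block 306.

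Over the cows, FDPS, CYP51A1 and DHCR7 varied together with and without the 2 Control cows that stood apart, while most other pairs did not pass without these cows. The 28 pairs were compared by Pearson's r and Spearman's rho. Over all 14 cows the median r was 0.62, and 19 of 28 pairs (67.9%) had r above 0.5, against a median of 0.01 and 15% over all pairs of tested probe sets. Because the 2 Control cows stood apart, tests are given for the other 12, where the median r was 0.41 and 10 of 28 pairs (35.7%) had r above 0.5, against 8.0% of all pairs. The points share the array and the tissue piece, and the 12 include both cows of 5 blocks.

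Among the 12 cows, 3 pairs passed a permutation test of r with Benjamini-Hochberg adjustment over the 28 pairs. FDPS and DHCR7 correlated at r = 0.86 (permutation p = 0.00032, adjusted 0.00574), with rho = 0.73 (p = 0.00894, adjusted 0.0501). CYP51A1 and DHCR7 correlated at r = 0.86 (permutation p = 0.00041, adjusted 0.00574), with rho = 0.78 (p = 0.00447, adjusted 0.0379). FDPS and CYP51A1 correlated at r = 0.82 (permutation p = 0.00086, adjusted 0.00803), with rho = 0.76 (p = 0.00542, adjusted 0.0379). These 3 enzymes act at distant points of the pathway, before squalene, on lanosterol and at the last step. Without the 2 cows farthest from the median of the first gene of each pair, r was 0.81, 0.72 and 0.78 for the 3 pairs.

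By rho, CYP51A1 also passed with SQLE (0.80, permutation p = 0.00326, adjusted 0.0379) and with MSMO1 (0.78, permutation p = 0.00354, adjusted 0.0379) among the 12 cows. Their Pearson values were 0.52 and 0.62, and neither passed by r (adjusted 0.236 and 0.124). TM7SF2 had lower r with the other late enzymes once the 2 Control cows were left out. Its r with CYP51A1 was 0.65 over 14 cows and -0.00 over 12, with DHCR7 it was 0.62 and 0.13, and with MSMO1 it was 0.78 and 0.50. With SQLE its r was 0.60 over 14 cows and 0.14 over 12, and with FDPS it was 0.72 and 0.23. Without the 2 of the 12 cows farthest from the median of the first gene, r changed unevenly. It was 0.50 for CYP51A1 with TM7SF2 and 0.67 for TM7SF2 with DHCR7, so these low values rest on few cows. For TM7SF2 with MSMO1, SQLE and FDPS it did not rise, at 0.38, 0.12 and 0.07.

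FDFT1 had r between -0.10 and 0.05 with FDPS, CYP51A1, TM7SF2, MSMO1 and DHCR7 among the 12 cows. With SQLE, the enzyme that acts next on its product, r was -0.69 (permutation p = 0.0125, adjusted 0.0878) and rho was -0.56 (permutation p = 0.0641, adjusted 0.18), and without the 2 farthest cows r was -0.65. Over all 14 cows r of FDFT1 and SQLE was -0.34. With PMVK, FDFT1 had r = 0.64 (permutation p = 0.0236, adjusted 0.124) and rho = 0.61 (p = 0.0402, adjusted 0.141) among the 12. The differences within all 7 blocks, 302 and 304 included, gave r = 0.96 for FDPS with DHCR7 and 0.98 for CYP51A1 with MSMO1, as values with no test.

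**Figure D5:**
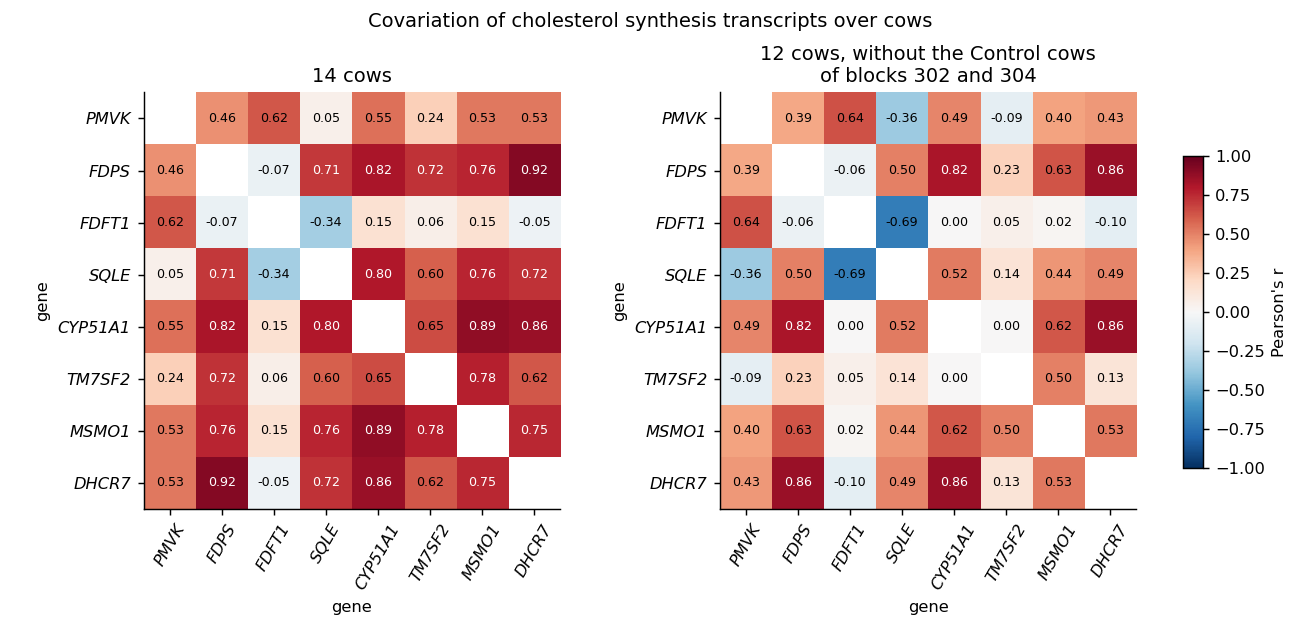
Pearson's r between the levels of each pair of transcripts over 14 cows (left) and over the 12 cows without the Control cows of blocks 302 and 304 (right), coloured from -1 to 1 with the value printed. FDPS, CYP51A1 and DHCR7 stay at 0.82 to 0.86 with each other in the right panel, while the FDFT1 row is near 0 or negative apart from PMVK.

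The genes outside the set whose levels followed the mean centred level of the 8 enzymes most closely over the 14 cows, among 4924 symbols, were ZC3H7A (r = 0.89), SH3BGRL2 (0.87), SHPK (0.87), TPD52L1 (0.86), GCAT (0.86), TMEM132A (0.82) and SFTA2 (0.82). Over the 12 cows the values were 0.81 for ZC3H7A, 0.75 for SHPK, 0.64 for SFTA2, 0.63 for TMEM132A, 0.56 for SH3BGRL2, 0.55 for GCAT and 0.35 for TPD52L1. The lowest r over 14 cows were those of ARF5 (-0.88), CTSW (-0.88), TPGS2 (-0.87) and ADAMTSL4 (-0.87), which were at -0.61, -0.63, -0.53 and -0.67 over the 12. TPD52L1 was among the closest over 14 cows but had a low r over 12, while ZC3H7A was close over both.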

How the data were processed

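The authors deposited 1 table of log2 intensities with 10852 rows, of which 112 are the array maker's control probe sets and 10740 are named by RefSeq accession. RMA and GCRMA are named, without versions, in the submitters' processing notes, but not which of them was applied. Unversioned accessions matched RefSeq's ARS-UCD2.0 gene table for 6749 probe sets. For each symbol the probe set with the highest mean was used. Probe sets with a mean above the 30th percentile (7518) were tested with limma 3.58.1 in R 4.3.3, with Benjamini-Hochberg adjustment over all of them calling those under 0.05. For diet, the block was a fixed term, because the stated design allocates diets within pairs. As a check of the pairing, the 2 cows of a block had deviations from their diet means that correlated at -0.47 to 0.32 (over 0.1 in 3 of 7 blocks). The number of arrays limits the precision, and each cow is 1 sample. Correlations used 100000 permutations, which treat cows as independent. The fits were run on simulated data with independent values. These held no block effects, correlated genes or arrays that stood apart, so they cannot show how the fits handle such features. The enzymes, gene lists and alternatives were chosen with earlier results of these data known. All 8 enzymes, and from each sterol list the 2 genes (4 for synthesis) with the smallest unadjusted diet p, plus INSIG1, are named. The 8 most and the 4 least similar genes by r are also named. Some genes that these rules pick are not reported here. The split of FDFT1 from the other enzymes was described after their values were seen. Motif searches in promoters were not run, as no sequence was used here. Alternatives covered the block, filters, array weights, normalization, calving day, the sign-flip test and blocks left out.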

Additional observations from a re-analysis of the deposited data

Results flagged for a closer look

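In 3 transcripts the Control cow of block 304 lay far below the rest of its group, by the gap to the nearest cow as a share of the group's range. CYP51A1 was at 7.39 log2 in this cow, against 8.41 to 8.78 in the other Control cows and 8.26 to 8.83 in the other 9 cows of higher parity. MSMO1 was at 9.57 log2, against 10.24 to 10.66 in the other Control cows and 10.24 to 10.80 in the other cows of higher parity. SQLE was at 7.53 log2, against 8.55 to 9.33 in the other Control cows. In the same cow SAA3 was at 13.82 log2 and HP, another acute-phase protein, at 10.00 log2, while HP was at 4.84 log2 in the Control cow of block 302 and did not exceed 6.12 log2 elsewhere. The part of inflammation in the enzyme levels was not tested. Of 32 groups examined, chance alone would give a deviating cow in about 1 in 20, and the groups are not independent, because diet and parity groups share cows.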

How the results depend on the processing

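The count of probe sets past the adjusted threshold was 0 for diet, parity and their interaction under every alternative run. With no replicate block, in place of the pairing by block, the diet count was again 0 (791 unadjusted) and the median over the 8 enzymes 0.24 log2. That median was 0.14 with array weights, 0.0316 without blocks 302 and 304, and 0.15 (without block 304) to 0.33 (without block 303) when 1 block was left out. The array weights came out equal within a block, so they weighted blocks. Of 104 alternative diet differences 11 changed sign. With array weights SQLE was at -0.11 and DHCR7 at -0.054. Without blocks 302 and 304 FDPS was at -0.0736, SQLE at -0.28, CYP51A1 at -0.0133 and DHCR7 at -0.20. Leaving out 1 block gave -0.13 to 0.13 for SQLE and -0.0334 to 0.26 for DHCR7. Of 88 parity differences 13 changed sign. Per 1 lower parity label, FDPS was at -0.0795, SQLE at -0.0948, CYP51A1 at -0.0215, TM7SF2 at -0.061, MSMO1 at -0.0423 and DHCR7 at -0.0387. Quantile normalization gave FDPS -0.0184. Leaving out 1 block gave -0.15 to 0.19 for FDPS, -0.13 to 0.28 for SQLE, -0.051 to 0.11 for TM7SF2 and -0.0203 to 0.10 for DHCR7. Of 72 interaction values 10 changed sign, all with 1 block left out, over ranges of -0.20 to 0.51 for PMVK, -1.14 to 0.10 for FDFT1, -0.55 to 0.87 for SQLE, -0.15 to 0.28 for CYP51A1 and -0.19 to 0.70 for TM7SF2. For all these sign changes the cause was not tested. The mean over probe sets gave no other value, since each enzyme had 1 probe set. With 7 blocks, the exact sign-flip p cannot go below 0.0156.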
